A study of Drosophila melanogaster with 18 samples.

Results

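The transcriptional response to copper was measured in parental DL1 cells, a cultured Drosophila melanogaster line whose tissue of origin the labels do not name. The comparison holds 6 of the 18 libraries of the series: 3 from parental cells that spent the last 24 h of a 3 d culture in 500 µM copper sulfate, and 3 from parental cells grown for 3 d without added copper. The libraries were chosen by their labels alone, and all genes were considered. Of 17753 genes in the deposited table, 13350 had any count and 8174 passed the filter on low counts and were tested. The parental cells are labelled wild type. The other 12 libraries come from puromycin-selected DL1 populations in which the MtnA promoter, which responds to copper, drives FLAG-tagged IntS6 or FLAG-tagged IntS12. They were grown with or without the same copper treatment. They serve here as a comparison, and they also enter the fit of all 18 libraries. That fit sets the filter on low counts and the spread behind the parental p-values. Copper served the study as the switch for these transgenes, so the parental libraries show what copper does without one. All cells were kept at 25 °C in a serum-supplemented medium. The series' design text calls the replicates A, B and C biological replicate sets, and nothing says whether they came from separate days. The p-values thus measure the spread between such libraries within a group, estimated over the 6 groups of the fit.

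Copper is a cofactor of cytochrome c oxidase and of copper/zinc superoxide dismutase, and in excess it promotes oxidative damage and occupies thiols and metal sites of other proteins. In Drosophila the zinc finger factor MTF-1 binds metal response elements and activates the metallothionein genes under metal load. Metallothioneins are small cysteine-rich proteins that bind copper, zinc and cadmium. Copper-importing transporters of the Ctr1 family and the copper-exporting ATPase ATP7 set how much of the metal a fly cell takes in and gives out.

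Copper-treated libraries A, B and C held 13885112, 18214756 and 13848036 counts, against 15309801, 16240267 and 14170983 counts in the untreated libraries. Genes whose symbol names an rRNA took 72.7% to 73.4% of the counts in copper-treated libraries and 72.1% to 73.0% in untreated ones. In a principal component analysis of the 6 libraries the first component, with 66.6% of the variance, put the copper-treated libraries at -35.1 to -21.3 and the untreated ones at 24.1 to 29.7. The second component (12.6%) set both C libraries, at -20.2 with copper and -13.1 without, apart from the other 4. Of 13 plasmatocyte (macrophage-like blood cell) markers 12 were tested, and their summed level ran from 394 to 459.6 CPM (the usual depth-scaled read count, relative to the TMM-scaled library size) with copper and from 492 to 620.4 CPM without. The sum leans on Ppn, with 7724 summed counts with copper and 13717 without, while the median log2 fold change of the 12 was 0.28. All 8 fat body markers were too low to test, with 0 counts in all 6 libraries for 5 of them, among them Lsp1alpha, Lsp2 and Yp1, and 3 summed counts with copper against 8 without for Yp3. Of 8 crystal cell and lamellocyte markers 3 were tested, with 1 called higher and 2 not called. The 1 was PPO3, at 6.33, 10.9 and 6.0 CPM with copper and 4.86, 3.72 and 3.56 CPM without (1.94-fold higher, edgeR adjusted p = 0.00332, and not called without copper library B, 0.0585). The uncalled ItgaPS5 had 25 summed counts with copper and 24 without. Of the untested ones, the crystal cell gene PPO1 had 0 counts throughout, and atilla had 0 summed counts with copper and 6 without. Of 7 neuronal markers 1 was tested: elav, with 27.9% of its exon bases shared with another gene on the same strand, stood at 21.2, 18.2 and 23.8 CPM with copper and 15.7, 16.4 and 21.2 CPM without.

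Copper changed a large share of the measured transcriptome. The threshold for a call was 0.05 on the Benjamini-Hochberg adjusted p of edgeR's quasi-likelihood test over all 8174 tested genes, and 1577 genes were higher and 1582 lower with copper, which is 19.3% and 19.4% of the genes tested. The counts called in each gene group below are to be read against these shares. Rises were larger than falls: 479 genes rose and 174 fell by more than 2-fold, and 167 rose and 13 fell by more than 4-fold. The median called rise was 1.57-fold and the median called fall 1.39-fold, and 705 of the rises and 976 of the falls were under 1.5-fold. The 3 copper-treated and 3 untreated CPM values did not overlap for 1433 of the genes called higher and 1397 of those called lower, nor for 771 uncalled genes, in all 44.1% of those tested. Most called genes were thus without overlap, so where groups of a called gene do not overlap below, this adds little to its call. Over all tested genes the median log2 fold change was 0.0034. No spike-in was counted, so every direction is relative to the other transcripts of a library.

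Copper-treated library B responded most. It had the highest CPM of the copper-treated libraries for 280 (58.5%) of the 479 genes that rose by more than 2-fold and the lowest for 99 (56.9%) of the 174 that fell by more than 2-fold. Without it 1249 genes were higher and 1156 lower.

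**Figure D1:**
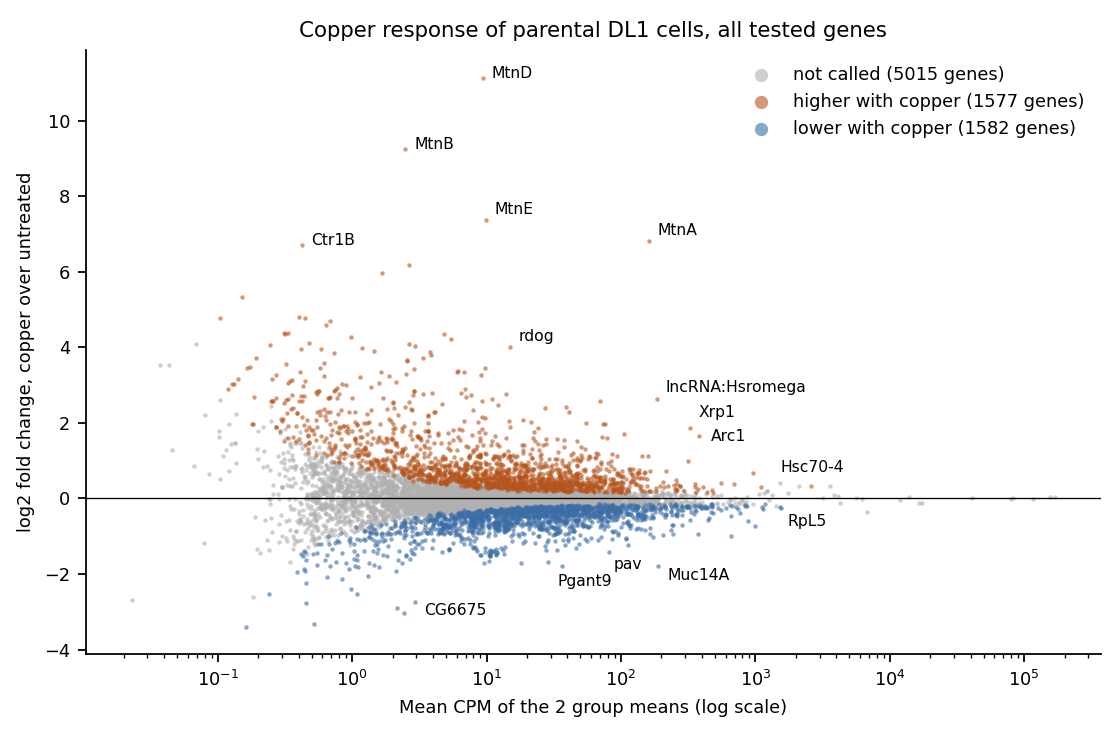
Each point is a tested gene, with the mean of the copper-treated and untreated CPM on a log axis and the log2 fold change, copper over untreated, on the other; orange marks the 1577 genes called higher, blue the 1582 called lower and grey the rest. The metallothionein genes stand furthest above 0, and fitted values of genes with 0 untreated counts (MtnD, MtnB, Ctr1B) depend on the prior count and are not fold estimates.

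The metallothionein genes gave the largest responses of any group described. Of the 6 in the table, 4 were tested and all 4 rose. In parental cells MtnB, MtnD and MtnE met the filter on low counts only with copper. For them a rise was thus built into being tested, and the count of 4 is not evidence about the group. MtnA (FBgn0002868, 3R:9783407-9784370 of BDGP6.54, minus strand) reached 285, 413 and 259.8 CPM in copper-treated libraries A, B and C, against 3.22, 2.65 and 2.69 CPM in untreated A, B and C. This was a 112-fold rise (log2 fold change 6.80 ± 0.19, SE, n = 3 libraries per group, edgeR adjusted p = 1.12e-16), and all values below are given in the same order of libraries. MtnE (FBgn0262146, 3R:20534021-20534704, minus strand) had 241, 324 and 320 counts with copper and 2, 3 and 0 without, a ratio of depth-scaled summed counts of 175 with an exact 95% interval of 74.8 to 541. MtnD (FBgn0053192, 3R:20534962-20535301, plus strand), which lies next to MtnE, had 297, 251 and 284 counts with copper and 0 in every untreated library, so it was at least 274.7-fold higher with the group floor set at 3 counts. MtnB (FBgn0002869, 3R:20503102-20503746, minus strand) had 72, 93 and 62 counts against 0, at least 74.9-fold higher. In none of these 4 genes did the groups overlap, and no exon base is shared with another gene. MtnC and MtnF had 0 counts in all 6 libraries, with or without copper.

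Transport genes for copper and zinc moved less. Of 18 tested, 12 (66.7%) rose and 1 fell, against 19.3% and 19.4% of all tested genes, with a median log2 fold change of 0.36. The exporter ATP7 stood at 38.3, 34.7 and 31.5 CPM with copper and 23.3, 22.7 and 19.6 CPM without (1.59-fold higher, adjusted p = 1.48e-05). The importer Ctr1A was at 13.8, 13.3 and 13.9 CPM against 11.2, 8.71 and 9.65 CPM (1.38-fold higher, adjusted p = 0.00488). So genes for both the exporter and a main importer were higher, without overlap between the groups. Ctr1B, an importer known in flies as a target of MTF-1 when copper is scarce, had 14, 17 and 8 counts with copper and 0 without, at least 12.9-fold higher. Its exons overlap other genes over 19.4% of their bases on the same strand and 19% on the other, and Ctr1C had 0 counts throughout. MTF-1 itself was at 28.6, 30.4 and 25.1 CPM against 22.9, 22.5 and 19.7 CPM, a 1.29-fold rise (adjusted p = 0.00398), with 19.4% of its exon bases overlapped on the other strand and 10.1% on the same strand.

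Among genes of the ZIP family of metal transporters, Zip99C reached 23.5, 26.6 and 21.2 CPM with copper against 6.37, 6.06 and 4.72 CPM without (4.15-fold, log2 2.05 ± 0.11, adjusted p = 1.33e-11). Zip48C had 7.75, 10.1 and 7.27 CPM against 4.93, 5.74 and 5.23 CPM (1.59-fold higher, adjusted p = 0.00101). The ZIP gene foi had 73.6, 154 and 88.3 CPM against 60.1, 54 and 51.9 CPM (1.91-fold, adjusted p = 0.00272), and its rise rested in good part on copper library B, since the log2 fold change was 0.93 with it and 0.55 without it. Zip88E went the other way, at 7.82, 7.65 and 7.27 CPM against 10.3, 9.09 and 10.0 CPM (1.29-fold lower, adjusted p = 0.00885). Sod1, the copper/zinc superoxide dismutase, was 1.23-fold higher (77.3, 68 and 78.7 CPM against 64, 59.8 and 58.8 CPM, adjusted p = 0.00586). Its copper chaperone Ccs, at 3.34, 4.47 and 5.17 CPM against 3.61, 3.98 and 3.05 CPM, was not called (adjusted p = 0.359).

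**Figure D2:**
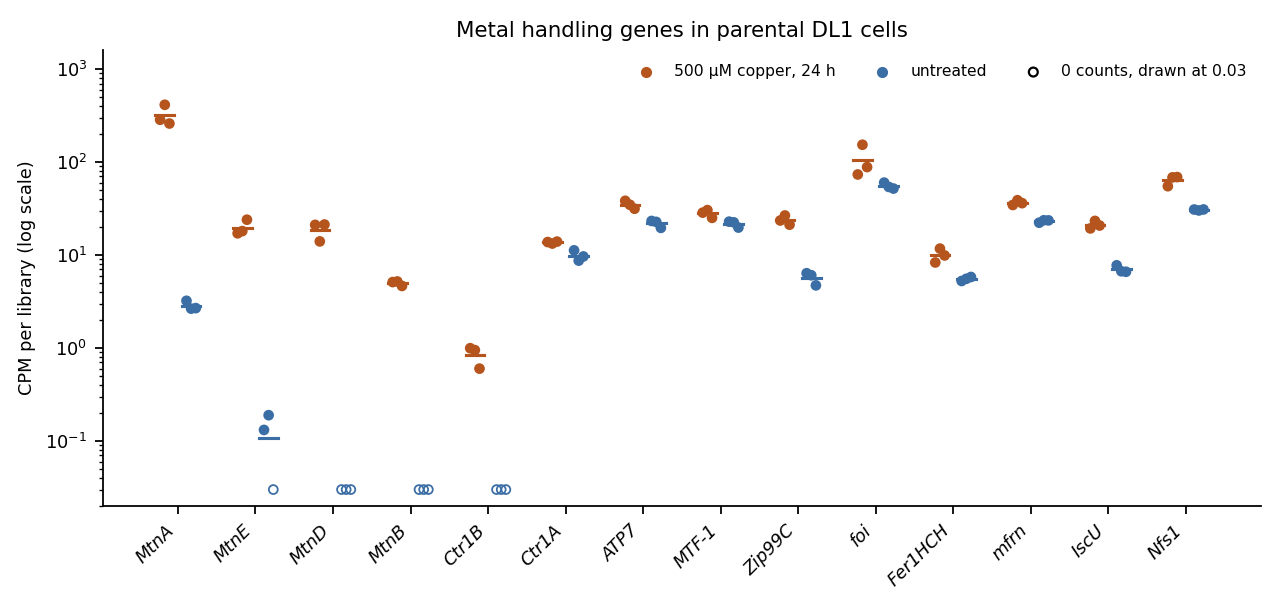
CPM of 14 metal handling genes in each parental library on a log axis, with copper-treated libraries (orange) left of untreated ones (blue), short lines at group means and open circles for 0 counts, drawn at 0.03. Only the metallothioneins and Ctr1B separate by more than 10-fold; the transport, iron and iron-sulfur genes differ by 1.29-fold (MTF-1) to 4.15-fold (Zip99C), and copper library B stands out for foi.

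Of 9 tested iron storage and transport genes, 4 (44.4%, against 19.3% of all tested genes) were higher, 0 lower and 5 not called, with a median log2 fold change of 0.57. The ferritin heavy chain gene Fer1HCH stood at 8.32, 11.7 and 9.9 CPM with copper and 5.26, 5.55 and 5.81 CPM without (1.81-fold, adjusted p = 6.27e-05). Its partner in the ferritin shell, the light chain gene Fer2LCH, was at 331, 338 and 271 CPM against 276, 264 and 270.3 CPM and was not called (adjusted p = 0.0586), but was with the replicate letter as a block (0.0326) or without copper library C (0.00861). The mitochondrial iron importer gene mfrn was 1.58-fold higher, at 34.5, 38.9 and 36.1 CPM against 22.3, 23.7 and 23.6 CPM (adjusted p = 7.91e-07), and the divalent metal transporter gene Mvl 1.54-fold higher, at 23, 27 and 26.2 CPM against 15.6, 17.6 and 16.1 CPM (adjusted p = 0.000139).

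Genes for building iron-sulfur clusters were among the clear rises. In human cells excess copper binds lipoylated mitochondrial enzymes and lowers iron-sulfur proteins, which is why both steps were listed together; of 11 genes tested 6 rose and 0 fell (median log2 0.40). The scaffold gene IscU had 19.3, 23.3 and 20.8 CPM with copper against 7.75, 6.69 and 6.6 CPM without (3.01-fold, log2 1.59 ± 0.11, adjusted p = 1.83e-10). Nfs1, the cysteine desulfurase that supplies the sulfur, had 55, 68.5 and 69 CPM against 30.9, 30.2 and 30.9 CPM (2.09-fold, adjusted p = 6.63e-08). Both genes were separated completely between the groups. The gene of the small partner of the desulfurase, bcn92, was 1.78-fold higher (adjusted p = 6.05e-05) and the ferredoxin gene Fdx1 2.94-fold higher (adjusted p = 6.35e-05), the second at only 3.41, 3.18 and 2.47 CPM against 0.92, 1.14 and 1.02 CPM. Overlap with genes on the other strand covers 13.9% of the exon bases of bcn92 and 14.3% of those of Fdx1. Its paralog Fdx2 was not called (4.12, 5.42 and 4.87 CPM against 4.14, 3.03 and 2.98 CPM, adjusted p = 0.0722, or 0.0403 without untreated library A). Of the lipoylated or lipoylation-dependent enzymes, muc, the acetyltransferase subunit of pyruvate dehydrogenase, was 1.32-fold higher (52.2, 45.4 and 41.5 CPM against 33.9, 36.2 and 35.3 CPM, adjusted p = 0.000298).

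Glutathione transferases, which join glutathione to reactive compounds, rose widely. Of 24 tested genes 18 (75%) were higher and 3 lower, and the median log2 fold change was 0.80. All 8 tested members of the epsilon class rose, with a median log2 fold change of 2.07. GstE6 was at 69.9, 102 and 91.3 CPM with copper and 20.8, 18.9 and 26.9 CPM without (3.98-fold, adjusted p = 1.2e-09), GstE9 at 18.8, 36.6 and 18.1 CPM against 3.88, 3.53 and 3.48 CPM (6.81-fold, adjusted p = 1.06e-07) and GstE11 at 7.68, 16.5 and 9.97 CPM against 1.45, 1.83 and 1.67 CPM (6.97-fold, adjusted p = 1.13e-07). In GstE9 and GstE11 copper library B was the highest by a wide margin, yet libraries A and C also lay above every untreated value. In the delta class 4 of 6 rose, among them GstD1, at 133, 207 and 142 CPM against 53.1, 44.6 and 49.5 CPM (3.28-fold, adjusted p = 2.5e-09). GstO3 of the omega class had 46.8, 59.6 and 31.5 CPM against 11.3, 9.02 and 5.81 CPM (5.27-fold, adjusted p = 8.44e-08). The zeta class gene GstZ1 fell 3.09-fold, at 0.497, 0.558 and 0.525 CPM against 1.31, 1.77 and 1.89 CPM (adjusted p = 0.000868).

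The wider antioxidant list was mixed, with 9 of 21 genes higher and 2 lower (median log2 0.19; 1 lower without copper library A or B or untreated library A or B). Gclc, the catalytic subunit of the enzyme that starts glutathione synthesis, reached 32.1, 37 and 32.5 CPM with copper against 13.1, 10.7 and 11.5 CPM without (2.88-fold, adjusted p = 2.08e-10). The Nrf2-type factor gene cnc was at 160.3, 193 and 154 CPM against 99.1, 106 and 98.1 CPM (1.67-fold, adjusted p = 1.34e-07). Keap1, whose protein holds cnc in check, was at 9.52, 11.2 and 10.1 CPM against 4.93, 3.15 and 3.63 CPM (2.64-fold, adjusted p = 3.85e-07). Thus the genes for the activator and for its inhibitor were both higher, with no overlap of the groups. Prx2 (1.43-fold, adjusted p = 1.34e-06), a peroxiredoxin gene, Cat, the catalase gene (1.36-fold, adjusted p = 7.55e-05), and Trxr1, the thioredoxin reductase gene (1.38-fold, adjusted p = 8.87e-05, 13.8% of exon bases overlapped on the other strand), rose by less than 1.5-fold. Prx4, a peroxiredoxin of the secretory pathway, fell 1.71-fold, at 9.31, 8.77 and 8.7 CPM against 16.9, 14.8 and 14.2 CPM (adjusted p = 1.01e-05).

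Cytochrome P450 genes, which encode oxidases of lipids, hormones and foreign compounds, were expressed at low levels. Of 26 tested 11 were higher and 3 lower, and 54 more in the table were too low to test. Cyp6d4 rose 2.68-fold (26, 29.6 and 24.1 CPM against 10.1, 10.0 and 9.72 CPM, adjusted p = 2.82e-09) and Cyp6a17 2.21-fold (10.7, 12.8 and 13.6 CPM against 6.24, 4.8 and 5.81 CPM, adjusted p = 1.5e-06). Cyp6w1 fell 3.3-fold, at 1.85, 0.782 and 0.675 CPM against 3.68, 3.15 and 3.99 CPM (adjusted p = 0.000173). The count of falls depended on untreated library B, without which 1 was called.

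Every proteasome gene tested was higher with copper. The 26S proteasome degrades ubiquitin-tagged proteins and is made of a 20S core of alpha and beta rings and a 19S cap of ATPases (Rpt) and other subunits (Rpn). All 32 subunit genes rose, by 1.19-fold to 1.73-fold, with a median log2 fold change of 0.54, and in 31 of them the groups did not overlap, with copper above untreated, as in 22.6% of all tested genes. The summed level of the 32 genes ran from 2143 to 2507 CPM in copper-treated libraries and from 1516 to 1652 CPM in untreated ones. The rise was spread over the whole particle: the median log2 fold change was 0.43 for the 7 alpha subunits, 0.57 for the 7 beta subunits, 0.45 for the 6 ATPases and 0.56 for the 12 other cap subunits. Rpn8 had the smallest p, at 41.4, 45 and 43.7 CPM with copper against 25.3, 24.1 and 25.9 CPM without (1.73-fold, log2 0.79 ± 0.08, adjusted p = 5.07e-08). The ATPase gene Rpt5 was at 58.1, 60.3 and 60.2 CPM against 35.5, 34.6 and 42 CPM (1.6-fold, adjusted p = 2.74e-07). Prosbeta5, which carries one of the proteolytic sites, was at 54.2, 63.2 and 56.3 CPM against 36.7, 34.1 and 37.3 CPM (1.61-fold, adjusted p = 3.12e-06). The weakest member was Rpt3, at 49.1, 56.2 and 55.6 CPM against 48.7, 44.1 and 42.7 CPM (1.19-fold, adjusted p = 0.0123). Its call ended without copper library B (adjusted p = 0.0509) or untreated library C (0.0513), and that of Prosalpha5 without copper library C (0.0564) or untreated library A (0.0676) or B (0.0727), which left 31 genes called in each case.

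**Figure D3:**
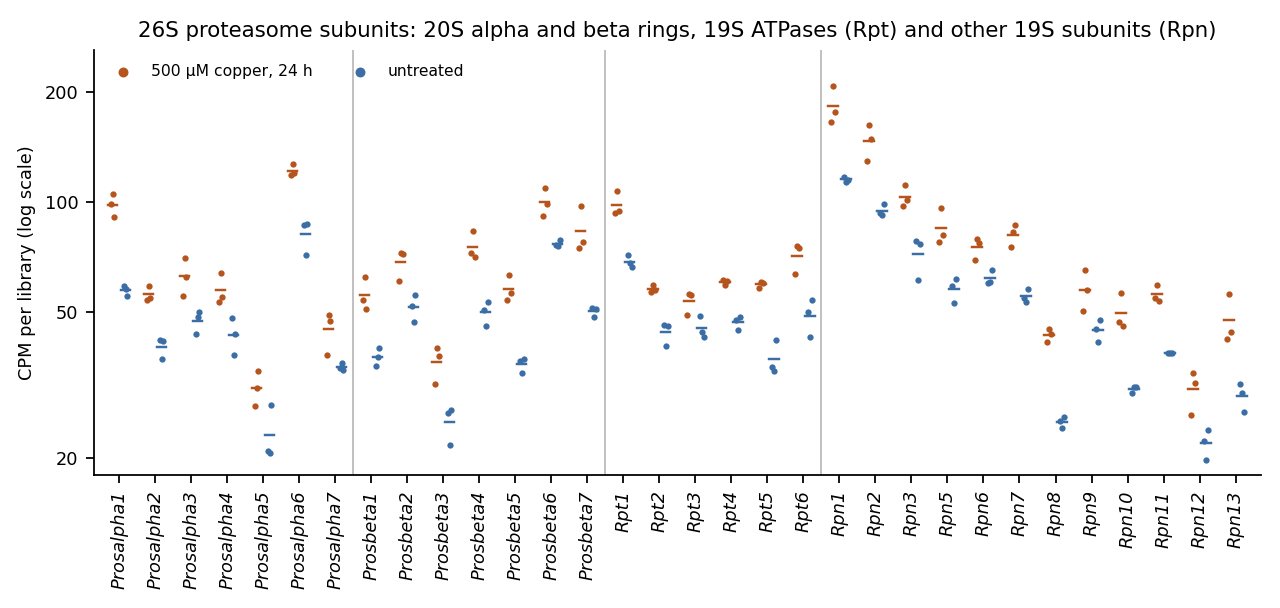
CPM of the 32 proteasome subunit genes in each parental library on a log axis, copper-treated (orange) left of untreated (blue) for each gene, with short lines at the group means and vertical lines between the 20S alpha, 20S beta, 19S ATPase and other 19S subunits. The orange points lie above the blue ones for every gene except Prosalpha5, where the groups touch.

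Chaperone genes rose in number but mostly by little. Of 27 heat shock and cytosolic chaperone genes 14 (51.9%) were higher and 0 lower, with a median log2 fold change of 0.26. Hsc70-4, the constitutive cytosolic Hsp70-class chaperone, made the largest gain in mean CPM of the called genes outside rRNA, at 2754, 3050.1 and 2928 CPM with copper against 2331, 2278 and 2297 CPM without, a 1.26-fold rise (adjusted p = 9.51e-05). Hsp83, the fly Hsp90, was at 722, 797 and 827 CPM against 590.0, 591 and 615 CPM (1.31-fold, adjusted p = 4.37e-05). The J-domain cochaperone gene DnaJ-1 rose 1.29-fold (adjusted p = 0.00111) and Droj2 1.23-fold (adjusted p = 0.000277). The classic heat-inducible genes stayed far below Hsc70-4 and Hsp83 in both groups, though some of them rose. Hsp23 had 6.89, 8.99 and 7.35 CPM against 4.27, 1.77 and 2.32 CPM (2.79-fold, adjusted p = 4.6e-05), and Hsp22, which CG4456 overlaps on the same strand over its whole exonic length, had 3.2, 7.93 and 4.05 CPM against 1.18, 0.505 and 0.435 CPM (7.19-fold, adjusted p = 3.38e-06). Hsp27 (25, 22.3 and 19.4 CPM against 22.9, 18.3 and 21.6 CPM) and Hsp68 (4.26, 4.63 and 3.97 CPM against 5.26, 4.61 and 4.5 CPM) were not called, and neither was the heat shock factor gene Hsf, at 41.9, 38.9 and 34.9 CPM against 40.2, 39.9 and 36.8 CPM (adjusted p = 0.909). Copies of Hsp70 are near-identical and their counts are uncertain. Hsp70Bbb had 3.98, 3.24 and 2.85 CPM against 1.77, 1.01 and 1.23 CPM (2.5-fold, adjusted p = 0.000661). Its ratio of depth-scaled summed counts, 2.51, was the largest of the Hsp70 copies. The ratios of Hsp70Ba, Hsp70Bc and Hsp70Bb were 2.21, 1.98 and 1.89. Hsp70Aa had 74, 57 and 43 counts with copper and 70, 27 and 31 without (ratio 1.35). Hsp70Ab had 90, 64 and 47 counts against 77, 28 and 30 (ratio 1.47).

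The stress RNA lncRNA:Hsromega, a nuclear noncoding RNA that gathers RNA-binding proteins under stress, stood out from these genes. It reached 366, 361 and 231 CPM with copper against 49.7, 46.1 and 57.7 CPM without (6.25-fold, log2 2.64 ± 0.13, adjusted p = 2.88e-12). Copper library C was the lowest of its group and still far above every untreated value.

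Autophagy genes rose in 9 of 21 cases and fell in 0 (median log2 0.34). The receptor gene ref(2)P, the fly p62, which links ubiquitinated cargo to autophagosomes, had 79, 110.1 and 77.8 CPM with copper against 38.4, 42.1 and 44.5 CPM without (2.14-fold, adjusted p = 8.15e-07). Atg8a, the membrane-conjugated protein that it binds, had 107, 118 and 77.5 CPM against 65.8, 62.9 and 55.6 CPM (1.64-fold, adjusted p = 2.41e-05). The initiating kinase gene Atg1 and its scaffold Atg17 were 1.48-fold and 1.59-fold higher (adjusted p = 0.000128 and 1.84e-05). In these 4 genes the groups did not overlap, as in 1433 of the 1577 genes called higher.

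Lysosomal genes followed in part, with 7 of 14 higher and 2 lower (median log2 0.24), or 1 lower without copper library B or untreated library B. The protease gene cathD was at 195, 197 and 164 CPM with copper and 127, 108 and 109.9 CPM without (1.61-fold, adjusted p = 6.13e-07). Npc2a, a sterol carrier of the lysosome lumen, was at 19.6, 16.6 and 17.7 CPM against 10.6, 7.95 and 5.95 CPM (2.18-fold, adjusted p = 0.000104). Ppt1, a palmitoyl-protein thioesterase, fell 1.28-fold (13.5, 14.6 and 13.3 CPM against 17.8, 16.3 and 19.2 CPM, adjusted p = 0.00936, 10.2% of exon bases overlapped on the other strand). The vacuolar ATPase, the proton pump of lysosomes, showed 1 rise (5.9%) and 3 falls (17.6%) among 17 genes. Both shares were below the 19.3% and 19.4% of all tested genes. The falls were led by that of Vha100-2 (1.57-fold, 94, 84.6 and 81.9 CPM against 141, 143 and 125 CPM, adjusted p = 6.04e-07). Without copper library B or untreated library A or B, 0 rises and 1 fall of the pump were called, and without copper library C 2 rises and 1 fall.

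Some genes for mitochondrial chaperones and proteases were higher. Of 18 import and proteostasis genes 6 (33.3%, against 19.3% of all tested genes) rose, 2 fell, or 1 without copper library C, and 10 were not called, with a median log2 fold change of 0.08. Hsc70-5, the mitochondrial Hsp70, was at 184, 229 and 200.5 CPM with copper and 119, 115 and 136 CPM without (1.66-fold, adjusted p = 8.37e-07). Hsp60A, the mitochondrial chaperonin, was at 271, 335 and 292 CPM against 213, 214 and 212 CPM (1.4-fold, adjusted p = 3.52e-05). The protease gene Lon was 1.33-fold higher (adjusted p = 0.00117). The import channel gene Tom40 fell 1.32-fold, at 25.5, 20.4 and 27.7 CPM against 29, 31.9 and 35.4 CPM (adjusted p = 0.00233).

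Genes of the unfolded protein response of the endoplasmic reticulum moved in both directions, with 11 of 21 higher and 4 lower (median log2 0.20). Gp93, the Hsp90 of this compartment, was at 368, 471 and 414 CPM with copper and 214, 205 and 211 CPM without (1.99-fold, adjusted p = 1.48e-08). PEK, the stress-sensing kinase that slows translation, was at 70.2, 94.5 and 75.5 CPM against 39.6, 37.7 and 34.8 CPM (2.15-fold, adjusted p = 6.84e-08). Both were separated from the untreated libraries by more than the spread within either group. Atf6, another sensor, went down 1.89-fold, at 14.7, 11.9 and 11.2 CPM against 23, 23.5 and 25.1 CPM (adjusted p = 2.94e-07). Hsc70-3, the BiP chaperone and a usual marker of this response, was only 1.17-fold higher (253, 291 and 309 CPM against 246, 235 and 246 CPM, adjusted p = 0.039), and its call ended when any 1 library was left out except copper library A (adjusted p of 0.0677 to 0.173). The factor gene Xbp1 was 1.3-fold higher (342, 489 and 375 CPM against 307, 331 and 288 CPM, adjusted p = 0.0219), a call that ended without copper library B (0.199) or untreated library A (0.0576) or C (0.0798). Without copper library B 7 genes of this list were called higher.

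The genes for COPI and COPII vesicle coats, which carry proteins between this compartment and the Golgi, rose in 7 of 13 cases and fell in 0, in 3 cases without copper library B and in 4 without untreated library C. The strongest was alphaCOP, at 154, 185 and 164 CPM with copper and 115, 117 and 114 CPM without (1.46-fold, adjusted p = 2.34e-06).

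Amino acid stress genes linked to ATF4, the factor encoded by crc, gave 7 rises (50%) and 3 falls (21.4%) among 14 (median log2 0.36). Of all tested genes 19.3% rose and 19.4% fell. The gene for the phosphatase subunit PPP1R15, which restarts translation, was at 35.5, 42.2 and 38.1 CPM with copper and 26.4, 26.9 and 28 CPM without (1.43-fold, adjusted p = 5.03e-05). The pseudokinase gene trbl was 1.59-fold higher (26.6, 33.9 and 30.7 CPM against 18.5, 19.9 and 19 CPM, adjusted p = 0.000187) and Nmdmc, a mitochondrial folate enzyme, 1.92-fold higher (9.52, 13.8 and 11.8 CPM against 5.85, 5.93 and 6.68 CPM, adjusted p = 0.000644). AsnS, the asparagine synthetase gene and a textbook ATF4 target in mammals, fell 1.33-fold instead, at 27.1, 34.6 and 34.3 CPM against 42.4, 42.2 and 43.6 CPM (adjusted p = 0.000251). The list thus did not move one way. The level of crc was 474, 485 and 394 CPM against 421, 428 and 390.3 CPM and not called (adjusted p = 0.146, or 0.01 without copper library C), and 73.5% of its exon bases are shared with another gene on the same strand. Thor, the translation inhibitor 4E-BP, was at 15.5, 42.6 and 16 CPM against 14, 18 and 8.85 CPM: it was called (adjusted p = 0.0328), but not without copper library B (0.605), untreated library A (0.0705) or untreated library C (0.142).

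Cytosolic aminoacyl-tRNA synthetases, which load amino acids onto tRNAs, were higher in 12 of 20 cases and lower in 2 (median log2 0.29). SerRS was at 94.9, 141 and 121 CPM with copper and 53.1, 54.8 and 50.7 CPM without (2.26-fold, adjusted p = 3.23e-07) and AlaRS at 143, 171 and 153 CPM against 88, 95 and 90.0 CPM (1.71-fold, adjusted p = 1.63e-06). AspRS was 2.17-fold higher (adjusted p = 5.76e-07), with 69.5% of its exon bases overlapped by genes on the other strand. MetRS and IleRS fell 1.29-fold and 1.28-fold (adjusted p = 0.000586 and 0.000679).

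The stress factor gene Xrp1 (FBgn0261113, 3R:18914968-18926989, plus strand), which encodes a bZIP protein known from ribosomal protein mutants and DNA damage, had the fourth largest gain in CPM. It stood at 465, 564 and 509.6 CPM with copper and 129, 144 and 149 CPM without (3.65-fold, log2 1.87 ± 0.08, adjusted p = 2.35e-13). In the TOR pathway, which couples nutrients to growth, 6 of 19 genes (31.6%) rose and 3 (15.8%) fell, against 19.3% and 19.4% of all tested genes. The genes of the TOR inhibitors scyl and chrb were 3.05-fold and 2.34-fold higher: scyl at 85.2, 146 and 125 CPM against 35.2, 39.1 and 42.4 CPM (adjusted p = 1.15e-07) and chrb at 10.8, 13.3 and 9.15 CPM against 5.72, 4.73 and 3.77 CPM (adjusted p = 2.25e-06). Sesn, another inhibitor, was 3.08-fold higher (10.9, 8.49 and 8.62 CPM against 4.14, 1.96 and 2.98 CPM, adjusted p = 1.84e-05), with 65.1% of its exon bases shared with a gene on the same strand. InR, the insulin receptor gene, was at 114, 120.4 and 119 CPM against 162, 163 and 168 CPM (1.4-fold lower, adjusted p = 2.75e-07), and foxo, whose protein acts when insulin signalling is low, was 1.4-fold lower (adjusted p = 0.000651). Without untreated library C 3 genes of the pathway were called higher.

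Glycolysis was higher along most of its length. Of 12 genes 10 (83.3%) rose and 0 fell, with a median log2 fold change of 0.45. Ldh, which makes lactate from pyruvate, was at 72.2, 188 and 93.8 CPM with copper and 32.4, 29.8 and 27.9 CPM without (3.94-fold, adjusted p = 1.95e-05). Pfk, the committing step, was at 95.9, 151 and 91.7 CPM against 61, 55.1 and 53 CPM (2.01-fold, adjusted p = 2.45e-05), and Gapdh2 at 1139, 1399 and 990.3 CPM against 764, 739.7 and 708 CPM (1.6-fold, adjusted p = 1.84e-05). In all 3 genes copper library B was highest, and the groups did not overlap. Pgi (87.5, 101 and 76.5 CPM against 86.1, 79.1 and 75.6 CPM) and PyK (206, 245 and 199 CPM against 203, 193 and 168 CPM) were the members not called, PyK being called without copper library C (0.0333) or untreated library A (0.0457). Without copper library B 7 of the 12 were called.

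The mitochondrial stages of energy metabolism did not show this. The citric acid cycle had 2 rises (13.3%, 1 rise without copper library B) and 4 falls (26.7%) among 15 genes, against 19.3% and 19.4% of all tested genes. The smallest p was that of Idh3g, a subunit of isocitrate dehydrogenase, at 37.8, 35.4 and 35.9 CPM with copper and 49.9, 46.2 and 49.3 CPM without (1.33-fold lower, adjusted p = 2.29e-05). Nuclear genes of the respiratory chain and ATP synthase showed 1 rise and 14 falls among 63 (22.2% lower, close to the 19.4% of all tested genes), with a median log2 fold change of -0.08. The falls were small, such as that of the complex I gene ND-B17 (16.1, 14.2 and 14.5 CPM against 20.7, 20.8 and 20.7 CPM, 1.39-fold lower, adjusted p = 0.0025), and the rise was that of UQCR-C1, a core subunit of complex III (130.4, 169.6 and 135 CPM against 109, 112 and 99.1 CPM, 1.37-fold, adjusted p = 0.000519). Only 5 falls were called without copper library B, 7 without copper library A, 9 without untreated library A or B and 8 without untreated library C. None of the 12 tested mitochondrially encoded protein genes was called, mt:CoI for example standing at 1239, 1224 and 1499.6 CPM against 1309, 1426 and 1840.3 CPM (adjusted p = 0.165), and the count of lower genes among them ran from 0 to 5 over the alternatives.

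Genes listed under sterol and fatty acid synthesis rose in 8 of 17 cases and fell in 3, or in 1 without copper library A or untreated library C. Hmgs was at 60.3, 103 and 68.1 CPM with copper and 33.4, 32.8 and 27.4 CPM without (2.47-fold, adjusted p = 3.77e-06). FASN1, the fatty acid synthase, made one of the largest gains in CPM, at 1113, 1374 and 1182 CPM against 987, 1053 and 927 CPM (1.24-fold, adjusted p = 0.00367). The factor gene SREBP was 1.23-fold higher (adjusted p = 0.00134). On the breakdown side 7 of 14 genes were higher and 1 lower, with 4 higher without untreated library A or B. The thiolase gene yip2 was at 36.4, 35.6 and 33.4 CPM against 14.3, 10.7 and 13.9 CPM (2.71-fold, adjusted p = 2.16e-09) and the lipase gene Hsl at 26.8, 29.9 and 23.2 CPM against 17.1, 18.5 and 16.7 CPM (1.53-fold, adjusted p = 2.87e-05). CROT, a carnitine acyltransferase gene, was at 7.39, 7.82 and 7.95 CPM against 3.74, 3.98 and 4.64 CPM (1.88-fold, adjusted p = 1.4e-05).

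Cytosolic ribosomal protein genes shifted down slightly. Of 83 tested 37 (44.6%) were lower and 0 higher, with a median log2 fold change of -0.18. RpL9 was at 396, 425 and 447 CPM with copper and 549.8, 596 and 507 CPM without (1.3-fold lower, adjusted p = 0.00031). RpS4 was at 989, 1047 and 1058 CPM against 1235, 1375 and 1138 CPM (1.21-fold lower, adjusted p = 0.00199), and RpL5 at 1401, 1440.4 and 1421 CPM against 1721, 1740.1 and 1617 CPM (1.19-fold lower, adjusted p = 0.00293). The fall of RpL9 was the largest of the 37, and the count of falls moved with single libraries: 14 without copper library A, 9 without untreated library B and 48 without untreated library C. RpL4 and RpL3, also among the largest losses in CPM, were each 1.16-fold lower (adjusted p = 0.0105 and 0.0161), and without untreated library B neither was called (0.0897 and 0.131); RpL3 was not called without copper library A either (0.0852). Rack1, a scaffold protein on the small ribosomal subunit, fell 1.37-fold, at 519, 569 and 565 CPM against 742, 834 and 689 CPM (adjusted p = 4.7e-05).

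Of 41 translation factor genes 7 (17.1%) were higher and 12 (29.3%) lower, against 19.3% and 19.4% of all tested genes, and 4 were lower with the parental groups fitted alone. The rises included subunits of eIF2 and of its exchange factor eIF2B, which control initiation: eIF2beta (129, 178 and 133 CPM with copper, 92.6, 102 and 84.4 CPM without, 1.58-fold, adjusted p = 0.000217) and eIF2Bdelta (112, 161 and 106 CPM against 79.7, 77.7 and 72.1 CPM, 1.65-fold, adjusted p = 9.74e-05). eIF6, which keeps the large ribosomal subunit from joining early, was at 53.3, 60.7 and 69.1 CPM against 31.5, 34.5 and 33.5 CPM (1.84-fold, adjusted p = 3.26e-08). Among 13 subunits of eIF3, the scaffold of initiation, 1 rose and 5 fell, the largest fall being that of eIF3e (94.2, 96.4 and 104 CPM against 123, 137 and 130.1 CPM, 1.32-fold lower, adjusted p = 9.87e-05). The 12 falls became 7 without copper library A and 6 without copper library B or untreated library B, and the 5 of eIF3 became 3 without untreated library B. Mitochondrial ribosomal protein genes showed 1 rise and 9 falls among 72, against 19.4% of all tested genes lower, and 2 falls without copper library B or 4 without untreated library B.

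Cell division genes fell as a group. Of 30 mitosis and cell cycle genes 22 (73.3%) were lower and 0 higher, with a median log2 fold change of -0.51. The kinesin gene pav and its partner tum, which together build the midzone for cytokinesis, fell 2.65-fold and 1.87-fold: pav was at 47.2, 38 and 48.7 CPM with copper and 120.5, 123 and 109.9 CPM without (adjusted p = 1.14e-10), and tum at 64.3, 51.7 and 65.5 CPM against 114, 112 and 111 CPM (adjusted p = 5.24e-09). The mitotic kinase gene polo was at 57.6, 50.8 and 57 CPM against 112, 118 and 120.3 CPM (2.12-fold lower, log2 -1.08 ± 0.07, adjusted p = 8.13e-11). Incenp, of the chromosomal passenger complex, was at 45.5, 37.5 and 45.1 CPM against 94.7, 101 and 77.9 CPM (2.14-fold lower, adjusted p = 4.84e-09), and CycB at 71.4, 59.2 and 67.1 CPM against 123, 124 and 124 CPM (1.88-fold lower, adjusted p = 9.15e-08). In all 5 genes copper library B was the lowest library. stg, the Cdc25 phosphatase that starts mitosis, fell less, at 75.2, 64.7 and 78.1 CPM against 112, 104 and 109 CPM (1.49-fold lower, adjusted p = 5.7e-06).

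Replication genes fell in 16 of 28 cases and rose in 1 (median log2 -0.36). Polymerase genes PolA1 and PolE1 were at 25.9, 20.3 and 24.4 CPM and 15.3, 13.5 and 17.7 CPM with copper, against 37.4, 42 and 41.7 CPM and 26, 22.4 and 28.7 CPM without (1.72-fold and 1.66-fold lower, adjusted p = 1.13e-06 and 1.24e-05). Mcm5, of the replicative helicase, was 1.85-fold lower (adjusted p = 3.38e-05) and the origin recognition gene Orc2 1.87-fold lower (adjusted p = 0.000262). The 1 rise was RPA1, which binds single-stranded DNA in replication and repair, at 81.2, 86.1 and 92.5 CPM against 39.5, 39.5 and 43.9 CPM (2.11-fold, adjusted p = 6.16e-10).

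Replication-dependent histone genes were lower in 108 of 111 cases and higher in 0 (median log2 -0.75). They are near-identical repeats, so single copies are uncertain and the 111 are not independent. The linker histone copies fell most: His1:CG33816 was at 4.69, 3.69 and 7.05 CPM with copper and 13.1, 13.9 and 20.6 CPM without (3.13-fold lower, adjusted p = 1.26e-06), and the copies His1:CG33822, His1:CG33813, His1:CG33837, His1:CG31617 and His1:CG33807 were between 2.82-fold and 2.88-fold lower. Untreated library C was the highest in each of these 6 copies. The count of falls was 67 without copper library B and 71 without untreated library C. In bulk RNA a smaller share of dividing cells and less of these transcripts per cell cannot be told apart.

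Apoptosis genes were higher in 7 of 11 cases and lower in 2 (median log2 0.42), or in 1 without untreated library B. The caspase genes Dcp-1, at 41.5, 46.7 and 42.5 CPM with copper and 20.8, 20.4 and 21.9 CPM without (2.07-fold, adjusted p = 3.04e-09, 13.7% of exon bases overlapped on the other strand), and Dronc, at 9.24, 12.3 and 10.4 CPM against 6.31, 5.93 and 6.17 CPM (1.74-fold, adjusted p = 0.000217), were among them. Debcl, a Bcl-2 family member, was 1.5-fold higher (adjusted p = 0.000109) and the effector caspase Drice 1.33-fold higher (adjusted p = 0.000845). The death activator hid was barely expressed, with 14, 20 and 12 counts against 3, 0 and 3 (7.17-fold, adjusted p = 0.000411), and its log2 fold change was 2.84 with untreated library B and 2.25 without it. The caspase inhibitor Diap1 was not called, at 22.6, 26.7 and 24.6 CPM against 26.5, 27.7 and 26.2 CPM (adjusted p = 0.26). Dredd, a caspase of immune signalling, fell 1.57-fold, at 9.74, 10.4 and 8.7 CPM against 15, 15 and 15.7 CPM (adjusted p = 0.000247).

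JNK signalling, a stress kinase pathway, gave 6 rises and 1 fall among 14 genes, the fall being lost without copper library B or C or untreated library B. The matrix metalloprotease Mmp1, a usual JNK target, was at 65.5, 90.1 and 53.5 CPM with copper and 29.8, 28.5 and 14.9 CPM without (2.85-fold, adjusted p = 8.57e-06). Its relative Mmp2 was at 4.05, 5.36 and 4.42 CPM against 0.723, 0.505 and 0.145 CPM (9.78-fold, adjusted p = 6.78e-08) and the TNF ligand egr at 1.14, 3.02 and 3.15 CPM against 0.197, 0.379 and 0.363 CPM (7.68-fold, adjusted p = 4.49e-06). The feedback phosphatase puc rose only 1.33-fold (33.7, 36.5 and 34.9 CPM against 28.4, 28.7 and 21.6 CPM, adjusted p = 0.000802). In the JAK-STAT pathway the ligands moved oppositely: upd3 was at 2.84, 4.75 and 4.87 CPM against 1.25, 1.7 and 1.23 CPM (2.96-fold higher, adjusted p = 0.000145) and upd1 at 4.26, 3.18 and 5.17 CPM against 7.23, 11 and 10.3 CPM (2.29-fold lower, adjusted p = 6.76e-05). The receptor dome and the factor Stat92E fell 1.31-fold and 1.42-fold (adjusted p = 0.00034 and 0.000505).

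Of 20 Toll and Imd pathway genes 1 rose and 1 fell, both below the 19.3% and 19.4% of all tested genes; the rise was the Toll ligand spz, at 8.39, 7.71 and 6.22 CPM with copper and 3.74, 3.6 and 5.01 CPM without (1.82-fold, adjusted p = 0.00227). These counts reached 4 and 3 under single alternatives. Only 1 of 14 antimicrobial peptide genes was expressed enough to test: CecC, at 0.711, 0.558 and 1.42 CPM against 1.51, 1.7 and 1.52 CPM, was called lower (1.81-fold, adjusted p = 0.033), but not without any 1 parental library other than copper library C (0.0561 to 0.206), nor by DESeq2 (0.0992). Among ecdysone response genes 5 of 15 (33.3%) rose and 4 (26.7%) fell, against 19.3% and 19.4% of all tested genes. The receptor EcR was 1.33-fold higher (adjusted p = 0.000524) and its partner usp 1.3-fold lower (adjusted p = 0.000171). Without untreated library B or C 3 rises of this list were called, and without untreated library B 2 falls.

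Plasmatocyte markers were split, with 5 higher (41.7%) and 4 lower (33.3%) of 12, against 19.3% and 19.4% of all tested genes. The phagocytic receptors eater and crq went opposite ways: eater was at 26.2, 25.5 and 22.2 CPM with copper and 48.3, 46.2 and 42.8 CPM without (1.86-fold lower, adjusted p = 6.13e-07) and crq at 21.4, 18.7 and 15.7 CPM against 12.6, 9.72 and 10.2 CPM (1.72-fold higher, adjusted p = 5.71e-05, 15.7% of exon bases overlapped on the other strand). The GATA factor srp fell 1.39-fold (66.7, 69.9 and 78.2 CPM against 95.4, 103 and 99.4 CPM, adjusted p = 8.82e-06, 16.1% of exon bases overlapped on the same strand). Of 9 basement membrane genes, which such cells secrete, 2 were higher and 2 lower (22.2% each, near the 19.3% and 19.4% of all tested genes). The falls were those of Ppn (198, 161 and 154 CPM against 339.8, 334 and 236 CPM, 1.77-fold lower, adjusted p = 3.95e-05) and LanA, a laminin subunit (701, 571 and 844 CPM against 967, 1025 and 1180.1 CPM, 1.5-fold lower, adjusted p = 0.000188). The rises were those of trol, the perlecan gene (323, 264 and 251 CPM against 252, 211 and 189 CPM, 1.28-fold higher, adjusted p = 0.0185), and Pxn, the peroxidasin gene (3.77, 3.85 and 5.55 CPM against 2.69, 2.78 and 3.48 CPM, 1.46-fold higher, adjusted p = 0.036). The call of trol ended without copper library A (0.141) or untreated library B (0.0588) or C (0.103), and that of Pxn without copper library C (0.194) or untreated library A (0.115) or B (0.106). The rises of the plasmatocyte list numbered 3 without copper library C or untreated library A or B. Of 4 tested germline and ovarian soma markers 1 was higher and 3 were lower. The rise was that of piwi, a small-RNA silencing factor, at 18.8, 19.9 and 31.3 CPM against 4.4, 5.87 and 8.71 CPM (3.69-fold higher, adjusted p = 5.71e-07), and the largest fall that of the factor tj, at 65.2, 49.9 and 90.0 CPM against 149.7, 164 and 162 CPM (2.33-fold lower, adjusted p = 3.01e-07). The Piwi-family gene aub was at 20.6, 13.7 and 14.9 CPM against 39, 30.7 and 28.2 CPM (2.0-fold lower, adjusted p = 2.75e-05) and fs(1)Yb at 38.1, 35.9 and 37 CPM against 53.2, 51.2 and 46.6 CPM (1.36-fold lower, adjusted p = 8.04e-05). The part of the cell type in these differences was not tested.

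The largest fold rises outside the metallothioneins came from genes that were almost silent without copper. ChLD3, a predicted chitin deacetylase gene, had 58, 155 and 40 counts with copper and 0, 0 and 3 without, a ratio of 83.5 with an exact 95% interval of 28.3 to 408. The ABC transporter gene rdog was at 25.1, 26.2 and 32.8 CPM against 2.04, 1.2 and 2.03 CPM (16-fold, log2 4.00 ± 0.17, adjusted p = 1.56e-13). NtR, of the ligand-gated channel family, was at 6.89, 10.5 and 10.3 CPM against 0.46, 0.442 and 0.435 CPM (20.4-fold, adjusted p = 2.88e-09). Each of these 3 genes was at or under 2.04 CPM in every untreated library. The kinase gene sff was at 4.12, 6.25 and 4.72 CPM against 0.526, 0.126 and 0.218 CPM (17.1-fold, adjusted p = 2.76e-07) and the guanylate cyclase gene CG10738 at 5.97, 5.86 and 9.37 CPM against 0.526, 0.315 and 0.581 CPM (14.7-fold, adjusted p = 8.37e-08). The less studied genes CG43968, CG8046, hwt and Taf12L rose 18.8-fold, 16.3-fold, 14-fold and 13.2-fold (adjusted p = 2.57e-08, 7.53e-09, 6.72e-10 and 1.94e-06). At these low counts single untreated libraries moved the size, with the log2 fold change of sff at 4.84 without untreated library A and that of Taf12L at 4.41 without untreated library C, against 4.09 and 3.72 with all libraries. Genes under 5 CPM also rose steeply, such as asRNA:CR45912, with 149 summed counts with copper and 2 without (ratio 73.8, exact 95% interval 20.1 to 615). In all, 30 genes had 0 counts in the untreated libraries and at least 10 summed counts with copper, and 2 genes outside rRNA had the opposite pattern.

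The largest falls were smaller, with 13 genes lower by more than 4-fold. Falls were ranked here only where the groups did not overlap and the higher group mean reached 5 CPM. Among such genes CG6675 alone fell by more than 4-fold. CG6675 was at 0.924, 0.782 and 0.60 CPM with copper and 5.12, 6.37 and 3.92 CPM without (6.63-fold lower, log2 -2.73 ± 0.27, adjusted p = 9.13e-08). Muc14A (X:16009114-16061722, plus strand), a secreted mucin gene, was at 107, 81.1 and 65.4 CPM against 289, 298 and 297 CPM (3.49-fold lower, adjusted p = 9.99e-10), and Pgant9, one of the enzymes that begin the O-glycosylation of mucins, was at 17.5, 13.3 and 18.4 CPM against 54.5, 58.8 and 55.3 CPM (3.45-fold lower, adjusted p = 9.84e-11). The mucin and the mucin-type glycosyltransferase thus fell by similar amounts. The immunoglobulin-domain gene tutl fell 3.29-fold (11.8, 5.58 and 8.32 CPM against 30.5, 28.1 and 24.5 CPM, adjusted p = 5.81e-08), CG12698 3.3-fold (adjusted p = 3.24e-08) and the lipocalin gene Karl 3.23-fold (adjusted p = 1.07e-08, 24.2% of exon bases overlapped on the other strand).

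Measured by CPM gained, the leading genes were Hsc70-4, Gapdh2, Arc1, Xrp1 and MtnA. Arc1 (FBgn0033926, 2R:14357927-14360297, minus strand), whose Gag-like protein forms capsids that carry RNA between cells, was at 577, 629 and 539 CPM with copper and 211, 173 and 172 CPM without (3.14-fold, log2 1.65 ± 0.11, adjusted p = 1.52e-10). LRP1, an endocytic lipoprotein receptor gene, was at 193, 249 and 210.3 CPM against 97.7, 107 and 96.7 CPM (2.16-fold, adjusted p = 1.19e-09). By CPM lost the leading gene was kst, the beta-heavy spectrin of the membrane skeleton, at 701, 717 and 807 CPM against 1179.9, 1293 and 1226 CPM (1.66-fold lower, adjusted p = 1.09e-08). Gp150, a transmembrane glycoprotein gene, was at 433, 419 and 469 CPM against 883, 908 and 826 CPM (1.98-fold lower, adjusted p = 1.56e-10), and the homeodomain and zinc finger gene zfh2 at 277, 221 and 263 CPM against 465, 490.4 and 515 CPM (1.93-fold lower, adjusted p = 3.44e-08, 18.7% of exon bases overlapped on the other strand). The amino acid transporter gene path fell 1.49-fold (285, 443 and 337 CPM against 470.3, 618 and 502 CPM, adjusted p = 0.00586).

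**Figure D4:**
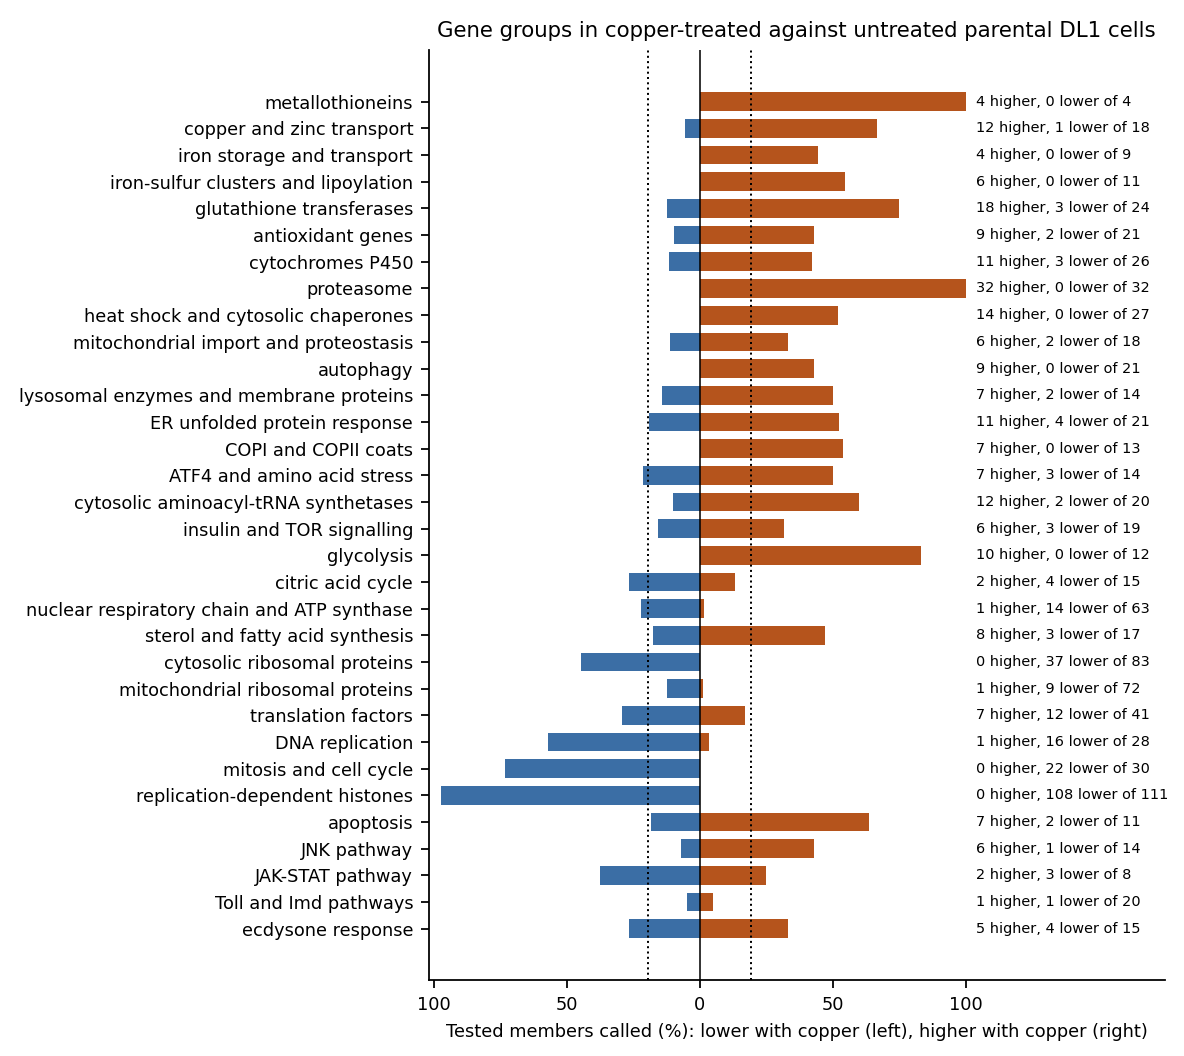
Percent of the tested members of 32 gene groups called higher with copper (orange, right of 0) and lower (blue, left of 0) in parental cells, with the counts at the right; dotted lines mark the 19.3% and 19.4% of all tested genes. Metallothioneins and proteasome subunits reach 100% higher and histones 97.3% lower, while Toll and Imd genes stay at 5% in each direction. The metallothionein bar was largely fixed by the filter on low counts, which MtnB, MtnD and MtnE met in parental cells only with copper.

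The same copper treatment was also given to the transgene lines, in which copper in addition induces FLAG-tagged IntS12 or IntS6, subunits of the Integrator complex that cleaves nascent transcripts. In the IntS12 line copper raised 1570 genes and lowered 1437 (19.2% and 17.6% of those tested), and in the IntS6 line 1900 and 1579 (23.2% and 19.3%). These comparisons have their own untreated and copper-treated libraries. Of the parental rises, 1263 were also called in the IntS12 line (80.1% of the parental rises and 80.5% of that line's) and 1254 in the IntS6 line (79.5% and 66.0%). Of the parental falls, 1204 were shared with the IntS12 line (76.1% of the parental falls and 83.8% of that line's) and 1157 with the IntS6 line (73.1% and 73.3%). Among the 479 genes that rose by more than 2-fold in parental cells, 430 (89.8%) were called higher in the IntS12 line and 446 (93.1%) in the IntS6 line, with a median log2 fold change of 1.64 in parental cells, 1.63 in the IntS12 line and 1.88 in the IntS6 line. Of the 174 falls over 2-fold, 138 (79.3%) were called lower in the IntS12 line and 124 (71.3%) in the IntS6 line, and the medians were -1.35 in parental cells, -1.11 in the IntS12 line and -1.09 in the IntS6 line. Both sets were chosen for their parental values. The proteasome counts were alike across the lines, with 31 of 32 genes higher in the IntS12 line and all 32 in the IntS6 line. MtnA rose 112-fold in parental cells, 128-fold in the IntS12 line and 181-fold in the IntS6 line, and Xrp1 3.65-fold, 3.47-fold and 2.88-fold.

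The difference between responses was tested as an interaction term in the same edgeR fit. Against the IntS12 line, 0 genes (0%) had a more positive parental response at an adjusted p under 0.05 and 1 gene (0.0122%) a more negative one, which was IntS12 itself (log2 fold change -0.46 in parental cells and 3.47 in the line). Its parental fall was not called without copper library B (0.0723) or C (0.0599) or untreated library A (0.0929). At an unadjusted p under 0.05 there were 72 and 102 such genes of 8174 tested, a threshold that a share of 0.05 of unchanged genes would also pass. DESeq2 also called 0 more positive, with 51 at an unadjusted p under 0.05. Against the IntS6 line, 3 genes (0.0367%) had a more positive parental response and 92 (1.13%) a more negative one, against 252 and 608 at an unadjusted p under 0.05. With the replicate letter as a block these counts were 7 and 144, without untreated library A 1 and 42, and without copper library B 6 were more positive. The 3 were lncRNA:Hsromega (log2 fold change 2.64 in parental cells and 1.56 in the IntS6 line), CROT (0.91 and -0.02) and CG8726 (0.37 and -0.19, with 12.7% of exon bases overlapped on the other strand). The difference of CG8726 was lost without any 1 parental library except copper library C (adjusted p of 0.0616 to 0.122), and that of CROT without untreated library A (0.0748). Among the 92, IntS6 apart, Hml, the clotting protein hemolectin of plasmatocytes, was at 3.7, 3.07 and 1.65 CPM with copper and 3.81, 1.96 and 1.81 CPM without in parental cells and was not called there (log2 0.16), while in the IntS6 line its log2 fold change was 3.62. Gs2, a glutamine synthetase (0.71 in parental cells and 3.75 in the IntS6 line), Mdr49, an ABC transporter (1.63 and 4.63), and CG8086 (0.99 and 3.87) also had a smaller response in parental cells. The parental rise of CG8086 was itself not called without copper library C (0.284) or untreated library A (0.119) or B (0.116), and Gs2 was called without copper library C (0.0449). Called in opposite directions were 13 genes that fell in parental cells and rose in the IntS6 line, and 1, IntS12, that fell in parental cells and rose in the IntS12 line. Of the 13, Tob, CG2065, Haspin and Pfrx did not pass the interaction test against the IntS6 line (adjusted p of 0.0557 to 0.0625). Of the genes in the groups above, the heat shock genes Hsp23, Hsp27 and Hsp68 also had a more negative parental response than the IntS6 line (adjusted p = 0.0205, 0.0205 and 0.00701), a difference lost without untreated library A for Hsp23 (0.162) and Hsp27 (0.0947).

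**Figure D5:**
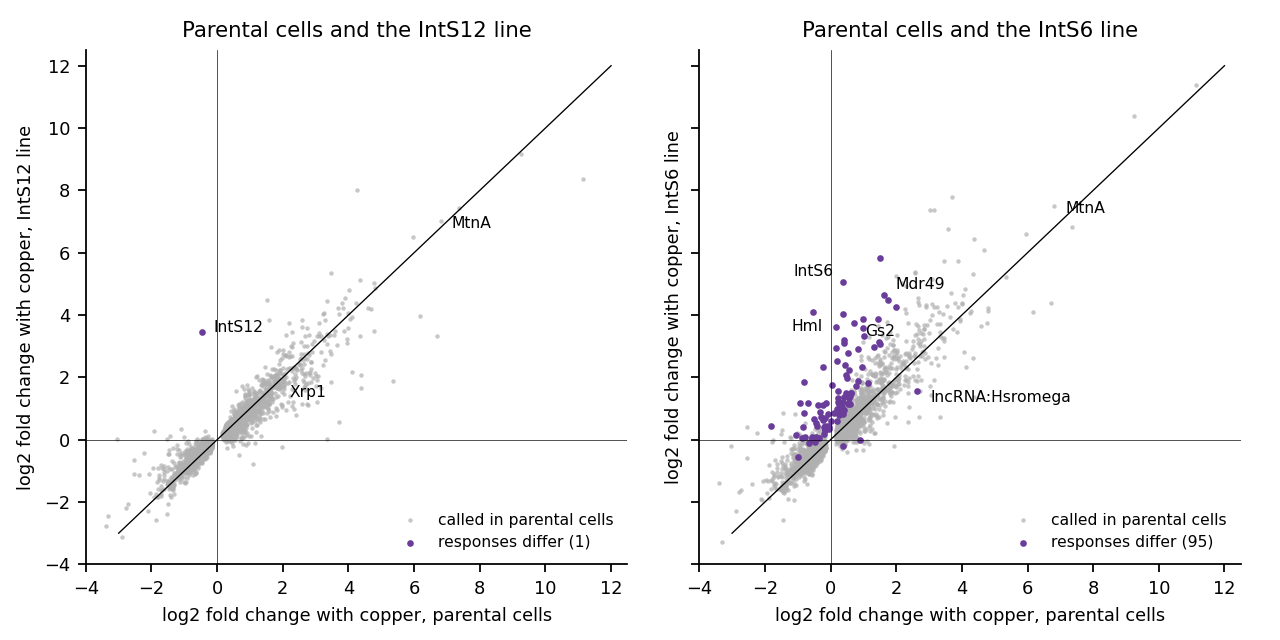
Log2 fold change with copper in parental cells (x axis) against that in the IntS12 line (left panel) or IntS6 line (right panel) for the genes called in parental cells (grey), with genes whose responses differ at an adjusted p under 0.05 in purple and a line at equal change. The IntS12 panel holds 1 purple point, IntS12 itself, and the IntS6 panel 95, of which 92 lie above the line.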

How the data were processed

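The authors deposited expected counts per FlyBase gene for 18 strand-specific, rRNA-depleted total RNA libraries; 13.4% of the values are not whole and were rounded here. Per the submitters' processing notes, Trimmomatic 0.39 and featureCounts were used with dm6 and BDGP6; for the aligner, the annotation release and the strand setting nothing was given in these sources. Counts were fitted with edgeR 4.0.16 in R 4.3.3 (filterByExpr, TMM factors, quasi-likelihood, 6 group means). CPM values use the TMM-scaled library sizes, and standard errors come from the F statistic. DESeq2 1.42.0 and other settings are alternatives. Genes named are the 12 per direction with the largest fold change (at least 5 CPM, no overlap), the 12 with the largest CPM difference, listed members with the smallest p or a needed role, and the leading interaction genes. Identifiers without a symbol (127) are not named. The members and lists were chosen with earlier results of these data known. Whether replicate letters pair the samples is not settled. Same-letter deviations correlated at 0.12, 0.11 and 0.28, and the design text speaks of sets, but copper B with untreated A also gave 0.13. The main fit took no account of the letters, and the fit with the replicate letter as a block is an alternative. Intervals and floors cover counting error only. Coordinates and exon overlaps come from BDGP6.54.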

Additional observations from a re-analysis of the deposited data

Results flagged for a closer look

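Responses to copper differed between parental cells and the transgene lines by the interaction test (edgeR, adjusted p under 0.05) for the following. Against the IntS12 line the count was 1 gene with a lower parental response, IntS12, with a difference in log2 fold change, parental cells minus line, of -3.93. Against the IntS6 line 3 genes had a higher and 92 a lower parental response. The 3 higher ones were lncRNA:Hsromega, with a difference of 1.09, CROT, with 0.93, and CG8726, with 0.57. Among the lower ones the difference was -4.67 for IntS6, the transgene's own gene, -3.46 for Hml, -3.03 for Gs2, -3.0 for Mdr49 and -2.88 for CG8086. The heat shock genes followed, with -1.64 for Hsp23, -0.75 for Hsp27, -1.32 for Hsp68 and -1.64 for Hsp70Bbb, whose counts are uncertain because its copies are near-identical. The difference was -0.61 for stg and -0.43 for Gp150, the second lost without copper library A (adjusted p = 0.0515) or B (0.0553) or untreated library A (0.0748) or B (0.0563) of the parental cells.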

How the results depend on the processing

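The counts of genes higher (1577) and lower (1582) with copper stayed within 1.5 times under the other normalizations, no filter, the parental groups alone (1183 and 1103), the replicate block (1648 and 1675), rRNA genes left out and DESeq2 (1407 and 1379). Tested against a fold change of 1.2 they were 890 and 728, a stricter question by construction. Leaving out 1 parental library gave 1249 to 1566 higher and 1156 to 1532 lower. Against the IntS6 line, more positive and more negative responses numbered 21 and 217 without the filter, 7 and 144 with the replicate block, 1 and 47 against a fold of 1.2, and 1 to 6 and 42 to 88 when 1 parental library was left out. Against the IntS12 line they numbered 4 and 4 without the filter. The causes were not tested. With the parental groups alone 14 ribosomal protein genes, 5 respiratory chain genes and 4 translation factor genes were lower, and 3 fatty acid breakdown genes and 2 ecdysone genes higher. Of 179 named genes called, 38 did not pass against a fold of 1.2, RpL9, RpS4, RpL5 and ND-B17 among them; under the other alternatives 13 lost the call and 0 turned round. Uncalled Hml had a log2 fold change of -0.06 without copper library A, against 0.58 without untreated library A, and Hsf one of 0.05 without copper library C, against -0.08 without copper library A. The replicate block changed no other call of a named gene than that of Fer2LCH. At this depth 8174 of the 13350 genes with any count could be tested.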

Other observations

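Among noncoding RNAs and Integrator genes most shares lay near or below the 19.3% higher and 19.4% lower of all tested genes. Of 157 long noncoding RNAs tested 24 (15.3%) were higher and 32 (20.4%) lower with copper, the falls numbering 20 without copper library B and 21 without untreated library C. Of 62 antisense RNAs 7 (11.3%) were higher and 11 (17.7%) lower. Of 141 small nucleolar and Cajal body RNAs 5 (3.55%) were higher and 2 (1.42%) lower, and of 23 small nuclear RNAs 7 (30.4%) were higher and 1 lower, with 3 higher without copper library B and 1 without untreated library C. Of 13 Integrator subunit genes 2 (15.4%) were higher and 3 (23.1%) lower, or 1 lower without copper library B. The median exon length was 2166 bases for genes called higher, 2652 for genes called lower and 2043 for all tested genes. The rRNA pseudogene 5.8SrRNA-Psi:CR45849 had 36764 counts in untreated parental library B and 10192 in the untreated IntS12 line library B, and 0 in the other 16 libraries.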
